A study of Homo sapiens with 12 samples.

Results

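Cells depleted of FOXM1 were set directly against cells depleted of CENPF, without going through the negative control. The comparison takes all 3 libraries of hTERT-RPE1 cells given an siRNA against FOXM1 (siFOXM1) and all 3 given an siRNA against CENPF (siCENPF), 6 of the 12 libraries of the series, chosen by the treatment in the labels. hTERT-RPE1 is an established retinal pigment epithelial line immortalised with telomerase, and every group used the same parental, wild-type line, which limits the results to 1 cell line. Each siRNA was given overnight at 20 nM, and polyA RNA was collected 48 hours after treatment. The other libraries, 3 with both siRNAs together (siCENPF+siFOXM1) and 3 with the negative-control siRNA (siNeg), serve here to place the 2 single knockdowns. The labels number the libraries 1 to 3 in each group and do not say whether they came from separate cultures, so p-values measure only the spread between these samples. The siRNA sequences were not at hand, and loss of a target and an effect of its siRNA on other transcripts cannot be told apart.

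FOXM1 is a forkhead transcription factor that, with B-Myb and the MuvB complex, switches on the genes cells need in G2 and mitosis. Many of those promoters carry a short element called the cell cycle genes homology region, or CHR, which MuvB binds through its LIN54 subunit. CENPF is a large coiled-coil protein that accumulates in G2, recruits dynein regulators to the nuclear envelope, and then sits in the fibrous corona of the kinetochore until it is degraded after mitosis. The CENPF gene is itself a known target of FOXM1, so the 2 knockdowns act at different levels of 1 programme: a regulator and a structural product.

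Each target was low in every library given its siRNA and in no other. FOXM1 (ENSG00000111206, chromosome 12, 2857681 to 2877040 on hg38, minus strand) had 732, 491 and 816 normalized counts in siFOXM1 libraries 1 to 3, against 3893, 3394 and 4258 in siCENPF. The double knockdown had 729, 816 and 822 normalized counts of FOXM1, and siNeg 4186, 4438 and 4763. CENPF (ENSG00000117724, chromosome 1, 214603195 to 214664588, plus strand) had 7567, 7448 and 7723 normalized counts in siFOXM1, against 893, 827 and 1017 in siCENPF. It stood at 1360, 1360 and 1284 with both siRNAs and at 7797, 9537 and 7993 with siNeg. FOXM1 was thus left at 15.2% of its siNeg mean by siFOXM1 and stood at 86.2% with siCENPF, while CENPF was left at 10.8% by siCENPF and stood at 89.8% with siFOXM1. On the log2 scale the siFOXM1 libraries differed from the siCENPF libraries by −2.53 for FOXM1 (SE 0.132, with limma adjusted p = 3.79e-06) and by 3.06 for CENPF (SE 0.0738, with limma adjusted p = 7.09e-16).

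Reads in genes ran from 13671250 to 17968360 per siFOXM1 library and from 13894831 to 31302177 per siCENPF library, the highest being siCENPF library 3. Libraries stood apart by their number as well as by their siRNA. Across genes, the deviations from the group means correlated at 0.558, 0.594 and 0.301 between siFOXM1 and siCENPF libraries of the same number 1, 2 and 3, as a description. The comparison was therefore made within replicate numbers, and an overlap between groups across numbers can go with a difference that has one sign in all 3 pairs. Of 16 retinal pigment and epithelial markers, 11 were measured, among them VIM, KRT8, KRT18, CDH2 and MITF, while the visual cycle genes RPE65 and RLBP1 were not in the table. BEST1, a chloride channel of the pigment epithelium, was called lower in siFOXM1 (log2 fold change −0.40, limma adjusted p = 0.00486), but shares 1267 exonic bases with FTH1 on the opposite strand, which was also lower, so its value is uncertain. In edgeR's quasi-likelihood test on the recovered reads BEST1 was not called (adjusted p = 0.0606 with TMM and 0.0731 with RLE scaling), and over all alternatives its adjusted p ran from 2.15e-05 to 0.996. Markers of other cells were few: 1 of 7 keratinocyte or carcinoma, 2 of 8 blood and endothelial and 3 of 8 neural markers were measured, and 0 of those 6 were called.

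In all, 1124 of 14750 genes differed between the knockdowns (7.62%), 496 of them higher with siFOXM1 than with siCENPF (3.36%) and 628 lower (4.26%), the targets included. A call means a limma adjusted p under 0.05, with the replicate number as a block and adjustment over all genes tested. Most differences were small, with a median log2 fold change of 0.31 among the higher genes and −0.32 among the lower. More than 2-fold differences numbered 8 higher and 24 lower, and more than 1.5-fold ones 50 and 95. All 496 higher genes and 626 of the 628 lower genes had the same sign in all 3 pairs, against 19.8% and 21% of all genes tested. The libraries of the groups did not overlap for 261 of the higher and 350 of the lower genes, against 5.81% and 5.93% of all genes tested. These counts describe the calls and are no separate support, since the same pair differences made the calls.

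Without the replicate block the calls numbered 69 (0.468% of the genes tested), 20 higher and 49 lower, all of them among the 1124. Calls numbered 481, 698 and 607 without the libraries numbered 1, 2 or 3 in every group, 693, 493 and 630 without siFOXM1 library 1, 2 or 3, and 822, 760 and 940 without siCENPF library 1, 2 or 3.

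**Figure D1:**
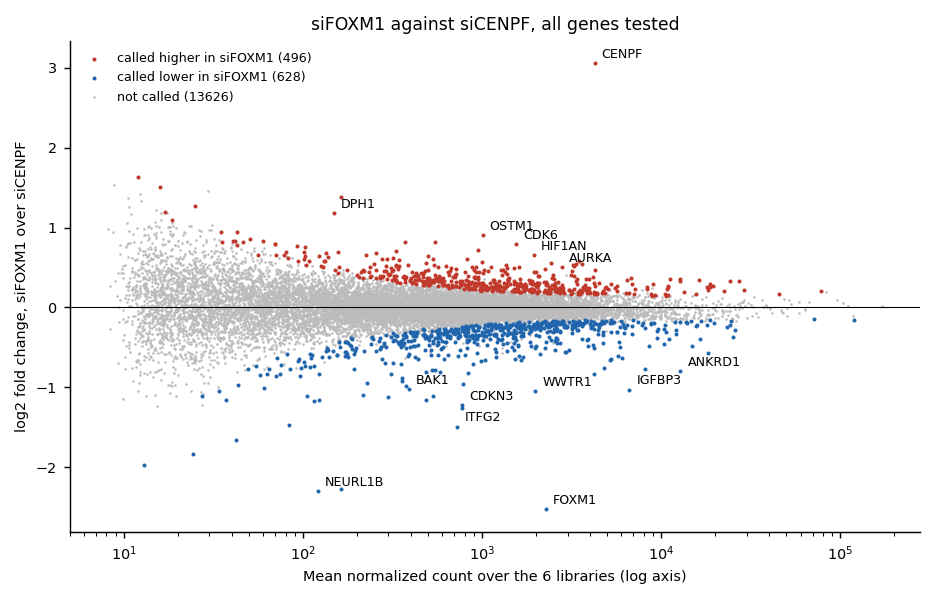
Log2 fold change of siFOXM1 over siCENPF (vertical axis) against the mean normalized count over the 6 libraries (horizontal log axis) for the 14750 genes tested, 1 point a gene. The 496 genes called higher with siFOXM1 are red, the 628 called lower are blue and the rest grey, and the 2 targets lie at 3.06 (CENPF) and −2.53 (FOXM1).

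The siNeg and double-knockdown libraries show which single knockdown a gene departs in. Of the 628 genes lower with siFOXM1 than with siCENPF, 439 (69.9%) had their siNeg level nearer to siCENPF. For the 496 higher genes the count was 254 (51.2%), and for all genes tested the share was 53.95%. Levels in the double knockdown lay nearer to siFOXM1 for 435 of the lower genes (69.3%) and 306 of the higher genes (61.7%), against 54.8% of all genes tested. These shares are a description, since the single knockdowns that chose the genes also give the distances.

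The genes with the largest deficits in siFOXM1 have varied roles. Values are given for genes with at least 100 normalized counts on average and no overlap between the groups. NEURL1B, a ubiquitin ligase of the Neuralized family that acts on Notch ligands, had 43.8, 39.8 and 36.4 normalized counts in siFOXM1, against 173, 249 and 186 in siCENPF. Its log2 fold change was −2.30 (SE 0.187, with limma adjusted p = 4.38e-09). It had 174, 272 and 220 in siNeg and 37.1, 78.9 and 40.3 in the double knockdown, so NEURL1B was low wherever the FOXM1 siRNA was given.

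TMEM71, a transmembrane protein, had 50.01, 53.6 and 62.8 normalized counts in siFOXM1, against 249, 288 and 277 in siCENPF (log2 fold change −2.27, limma adjusted p = 2.47e-10). THOC7, a subunit of the THO complex that couples transcription to mRNA export, had 508, 369 and 491 in siFOXM1, against 997, 1126 and 1140 in siCENPF (log2 fold change −1.26, SE 0.0887, with limma adjusted p = 3.48e-10). Both genes were separated by a wide gap, with siCENPF at 83.6% of siNeg for TMEM71 and 104% for THOC7. No other of the 16 measured genes of mRNA export and the THO complex was called in either direction. The share called was 6.25%, near the 7.62% of all genes tested.

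CDKN3, a phosphatase that acts on CDK1 and CDK2, had 390, 494 and 491 normalized counts in siFOXM1, against 831, 1333 and 1098 in siCENPF. Its log2 fold change was −1.23 (SE 0.0891, with limma adjusted p = 5.53e-10), and siNeg stood at 962, 1249 and 1262. WWTR1, which encodes the YAP paralogue TAZ, had 1434, 1180 and 1260 in siFOXM1, against 2932, 2695 and 2384 in siCENPF (log2 fold change −1.05, SE 0.0652, with limma adjusted p = 6.35e-11). For CDKN3 and WWTR1 every siFOXM1 library lay below every siCENPF and every siNeg library.

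IGFBP3, a secreted binding protein of insulin-like growth factors, had 5193, 3640 and 4299 normalized counts in siFOXM1, against 9322, 8252 and 9038 in siCENPF. With siNeg at 7908, 5314 and 6999, IGFBP3 stood at 64.9% of siNeg in siFOXM1 and at 132% in siCENPF, so that the single knockdowns lay on opposite sides of the control mean. The log2 fold change was −1.03 (SE 0.0591, with limma adjusted p = 1.43e-11). BAK1, a pore-forming effector of apoptosis, had 272, 203 and 293 in siFOXM1, against 641, 458 and 468 in siCENPF (log2 fold change −1.03, limma adjusted p = 1.93e-07). Of the 14 measured BCL2 family genes, 2 were lower, BAK1 and the BH3-only gene PMAIP1 (log2 fold change −0.35), 0 were higher, and the median log2 fold change was 0.02. That family had 14.3% called, beside 7.62% of all genes tested.

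CNTRL (centriolin, a mother-centriole protein), RMND5A (a subunit of the CTLH ubiquitin ligase), GPR180, B3GNT5 (a glycosyltransferase of glycosphingolipid synthesis) and NECAP1 (an endocytic adaptor) were also lower by that rule, with log2 fold changes between −1.16 (NECAP1) and −0.95 (B3GNT5). GPR180 and NECAP1 lost their call without the replicate block, at limma adjusted p = 0.228 and 0.196. Over the 23 alternatives their adjusted p ran up to 0.368 and 0.483, with the 6 libraries and no block. ITFG2 was lower too (log2 fold change −1.49), but its exons share 781 bases with FOXM1 on the opposite strand. Without strand, reads of those genes cannot be told apart, and no source used here says how strand was treated in counting. The same doubt holds for WWTR1, which shares 795 exonic bases with WWTR1-AS1 (−0.83), and for BAK1, which shares 91 with GGNBP1 (−0.86). Among genes given further on, CCNF, CTGF, SLC7A5, FDPS, IDI1 and DEPDC1 share 195 to 693 exonic bases with an opposite-strand gene called in the same direction, and are uncertain for that reason.

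On the other side, many of the genes most in excess in siFOXM1 stood low in siCENPF. DPH1, an enzyme of diphthamide synthesis on elongation factor 2, had 231, 175 and 214 normalized counts in siFOXM1, against 81.7, 110 and 81.7 in siCENPF (log2 fold change 1.18, SE 0.155, with limma adjusted p = 1.07e-05). With siNeg at 176, 218 and 191, DPH1 stood at 46.7% of siNeg in siCENPF and 106% in siFOXM1. Its exons share 422 bases with an opposite-strand transcript, RP11-667K14.4, that was also higher (log2 fold change 1.39), so the value of either is uncertain.

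OSTM1, a subunit of a lysosomal chloride transporter, had 1506, 1118 and 1316 normalized counts in siFOXM1, against 806, 623 and 667 in siCENPF. Its log2 fold change was 0.91 (SE 0.0634, with limma adjusted p = 3.48e-10), and siCENPF left it at 54.6% of siNeg. HIF1AN, the asparagine hydroxylase that restrains HIF activity and also modifies Notch, had 2355, 2463 and 2309 in siFOXM1, against 1504, 1517 and 1510 in siCENPF (log2 fold change 0.65, SE 0.0559, with limma adjusted p = 1.10e-08). The siCENPF libraries of HIF1AN ran from 1504 to 1517 and lay below all 9 other libraries, which included 1667 to 1775 in the double knockdown.

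CDK6, a kinase of the G1 phase, had 2227, 1605 and 1982 normalized counts in siFOXM1, against 1356, 788 and 1281 in siCENPF. The siNeg values of 1764, 1471 and 1626 lay between the single knockdowns in all 3 numbers. Its log2 fold change was 0.79 (SE 0.0855, with limma adjusted p = 4.38e-06), and without the replicate block the adjusted p was 0.134, within a range over alternatives of 3.76e-15 to 0.564. Among 21 measured genes of the G1 and S transition, CDK6 and CDKN1A, the p21 inhibitor (log2 fold change 0.19), were higher and 0 were lower. CDKN1A kept its call in 3 of the 9 fits that left out libraries. The share called was 9.52%, near the 7.62% of all genes tested. MAML1, a coactivator of Notch, had 1016, 1020 and 958 in siFOXM1, against 718, 534 and 726 in siCENPF (log2 fold change 0.61, limma adjusted p = 3.28e-04). NEURL1B and MAML1 were the only 2 called of 15 measured Notch pathway genes, in opposite directions, and the list's median log2 fold change was 0.01. For the Notch list the share called was 13.3%, beside 7.62% of all genes tested.

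RBM24 (an RNA-binding protein, 0.82), DMBT1 (0.69), ZNF254 (0.66) and C3orf38 (0.64) were also higher, by the log2 fold changes given. For RBM24, ZNF254 and C3orf38 the siCENPF mean stood between 62.4% and 67.4% of siNeg. HYAL3, CCDC150, FAM217B and C5orf54 met the rule as well, with log2 fold changes from 0.60 to 0.64. Their calls were less stable: HYAL3 and C5orf54 kept the call in 3 of the 9 fits that left out libraries, CCDC150 in 6 and FAM217B in 8.

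**Figure D2:**
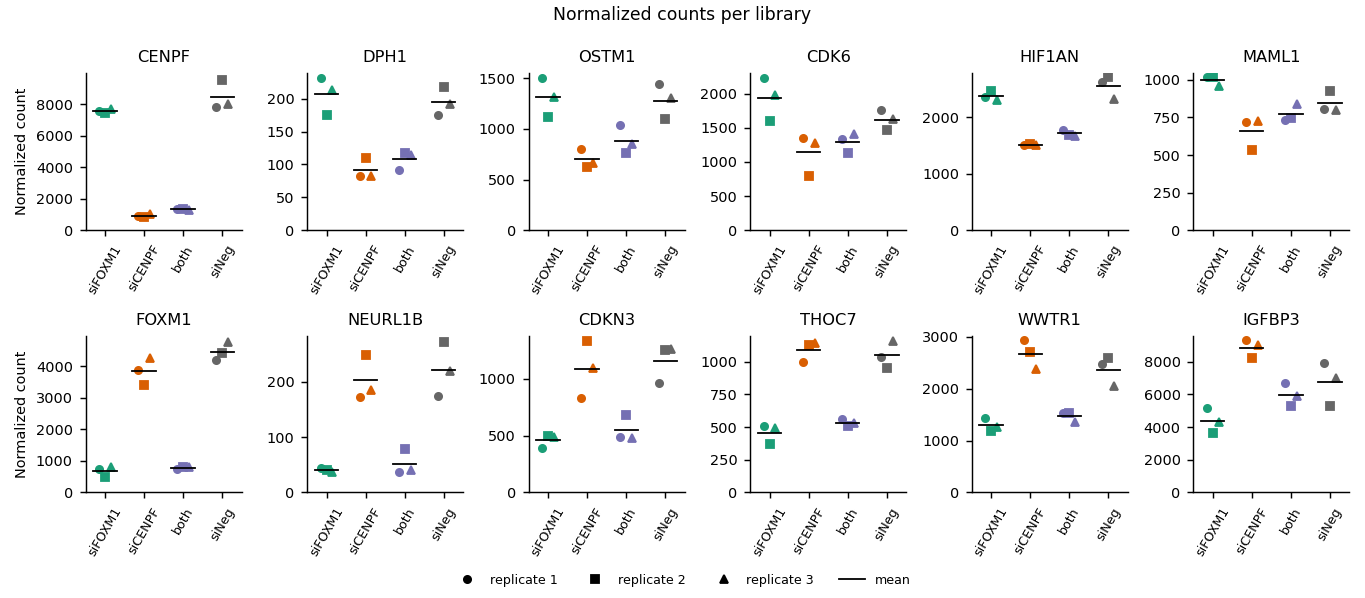
Normalized counts (linear axes from 0) in every library of CENPF, FOXM1 and 10 of the genes with the largest differences, with siFOXM1 first, then siCENPF, the double knockdown ("both") and siNeg. Symbols give the replicate number and lines the group means, and in each of the 12 panels the siFOXM1 and siCENPF libraries do not overlap.

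Mitotic genes moved in both directions. Lists of cyclins and CDK1 regulators, mitotic kinases, CENP-A loading factors, the kinetochore, the spindle checkpoint, the chromosomal passenger complex, condensin and cohesin, kinesins and the spindle held 171 measured genes besides the targets, in 12 overlapping lists, FOXM1 targets included and CENPF partners not. Of these, 39 were higher with siFOXM1 than with siCENPF, 23 lower and 109 not called, or 36.3% called, beside 7.62% of all genes tested. Called genes are more frequent among abundant genes: the share was 15.8% among the 2950 genes with the highest counts, from 1500 upwards, and 1.02% among the 2950 with the lowest. The median log2 fold change was 0.09, against −0.00 over all genes, and the medians within replicate numbers 1, 2 and 3 were 0.12, 0.10 and 0.07. Against siNeg, the median mitotic gene stood at 99.3% in siFOXM1 and at 93.0% in siCENPF. The siNeg level lay nearer to siCENPF for 80 of the 171. Without the replicate block 6 of the 171 were called, and in the fits that left out libraries 29 (without number 1) to 52.

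Cyclins were among the lower mitotic genes, besides CDKN3. CCNA2, the cyclin of S and G2 phase, had 2307, 2378 and 2457 normalized counts in siFOXM1, against 3179, 3735 and 3653 in siCENPF (log2 fold change −0.56, SE 0.0511, with limma adjusted p = 3.41e-08). CCNB1, the cyclin that drives mitotic entry, had 1641, 1747 and 1665 in siFOXM1, against 2326, 2924 and 2363 in siCENPF (log2 fold change −0.58, SE 0.0570, with limma adjusted p = 1.20e-07). Both cyclins stayed near siNeg in siCENPF, at 95.5% and 94.2%, and fell to 64.5% and 62.5% of it in siFOXM1, with the double knockdown at 66.9% and 62.6%.

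CCNF, which encodes the F-box protein cyclin F, had 809, 799 and 742 normalized counts in siFOXM1, against 1006, 1051 and 1186 in siCENPF (log2 fold change −0.46). In all, 7 of 17 cyclins and CDK1 regulators were lower and 1 higher, CDC25C (0.34). The share called was 47.1%, beside 7.62% of all genes tested. The 7 were CDKN3, CCNA2, CCNB1, CCNF, BORA (−0.47), CDK1 (−0.23) and CDC25B (−0.22). The other 9 of the 17 were not called, and the median log2 fold change of the list was −0.02. BORA, CDK1, CDC25B and CDC25C were named after their values were seen.

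Lower genes outside the cyclins act at the centrosome, the spindle and in cytokinesis. NEK2, a kinase of centrosome separation, had 631, 717 and 667 normalized counts in siFOXM1, against 983, 1318 and 1026 in siCENPF (log2 fold change −0.71, SE 0.0767, with limma adjusted p = 5.40e-07). KIF20A, the cytokinesis kinesin MKLP2, had 1988, 2243 and 2045 in siFOXM1, against 2516, 3435 and 3174 in siCENPF (log2 fold change −0.53, limma adjusted p = 5.78e-06). FAM83D, which targets the kinesin Kid and casein kinase 1 to the spindle, had 944, 990 and 944 in siFOXM1, against 1371, 1566 and 1326 in siCENPF (log2 fold change −0.56, limma adjusted p = 5.52e-06). In these 3 genes the groups did not overlap, and the siFOXM1 means were 55.4% to 61.7% of siNeg while the siCENPF means were 86.1% to 91.5%.

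CKAP2, a spindle protein that stabilises microtubules (−0.41), and CEP55, which organises the midbody for abscission (−0.35), were lower as well, without overlap. CENPA, the histone H3 variant that marks the centromere, had 239, 401 and 270 normalized counts in siFOXM1, against 318, 534 and 408 in siCENPF. It was lower in every pair (log2 fold change −0.47, limma adjusted p = 0.00188), yet the groups overlapped because libraries numbered 2 were high in both. Among the 15 CENP-A loading genes measured, NPM1, a histone chaperone, was lower too (−0.22).

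NEK7, a kinase of centrosome maturation, differed in another way. It had 3619, 3336 and 3521 normalized counts in siFOXM1, against 4576, 5425 and 4912 in siCENPF (log2 fold change −0.51, SE 0.0576, with limma adjusted p = 1.21e-06), with siNeg at 3920, 3744 and 3897. Every siCENPF library of NEK7 lay above every siNeg library, and the double knockdown was also above siNeg at 4361, 4637 and 4253. RAD21, the cohesin subunit cleaved by separase, was lower in siFOXM1 (log2 fold change −0.31, limma adjusted p = 2.82e-04).

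The higher mitotic genes were led by AURKA. AURKA, the kinase of centrosome maturation and spindle assembly, had 3072, 3427 and 3279 normalized counts in siFOXM1, against 2097, 2562 and 2247 in siCENPF. Its log2 fold change was 0.50 (SE 0.0517, with limma adjusted p = 2.49e-07), with no overlap. The siNeg values of 2709, 3157 and 2942 lay between the groups in every number, so that AURKA, often counted among FOXM1 targets, stood at 111% of siNeg in siFOXM1 and at 78.4% in siCENPF. CIT, the citron kinase of the midbody, had 2326, 2869 and 2627 in siFOXM1, against 1666, 1775 and 2182 in siCENPF (log2 fold change 0.48, limma adjusted p = 4.47e-05).

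KIF15, a spindle kinesin, had 667, 857 and 737 normalized counts in siFOXM1, against 392.2, 738.5 and 568.4 in siCENPF. The log2 difference was 0.76 in pair 1, 0.21 in pair 2 and 0.37 in pair 3, a mean of 0.45 (limma adjusted p = 0.00144). DEPDC1, a mitotic protein, had 3522, 4080 and 3854 in siFOXM1, against 2902, 3161 and 2903 in siCENPF (log2 fold change 0.35, limma adjusted p = 3.01e-05). DEPDC1 stood at 127% of siNeg in siFOXM1 and at 99.7% in siCENPF.

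All 5 called genes of the spindle checkpoint, of 12 measured, were higher with siFOXM1 (41.7% called, beside 7.62% of all genes tested). They were BUB1 (0.29), a kinase that scaffolds the checkpoint and recruits CENPF to kinetochores, BUB3 (0.26), BUB1B (0.25), which encodes BubR1, TTK (0.23), the kinase Mps1 at the head of the pathway, and CDC20 (0.17), the APC/C activator that the checkpoint restrains. BUB1 had 2835, 3222 and 3123 normalized counts in siFOXM1, against 2329, 2655 and 2544 in siCENPF, with limma adjusted p = 6.53e-04. BUB3 had 9355, 9289 and 8749 in siFOXM1, against 7586, 7903 and 7380 in siCENPF. For BUB1 and BUB3 the groups did not overlap, whereas TTK and CDC20 kept their calls in 1 and 2 of the 9 fits that left out libraries. The median log2 fold change of the checkpoint list was 0.14, and 0 of its 12 genes were called without the replicate block. Against siNeg, its median member stood at 102.4% in siFOXM1 and at 91.85% in siCENPF. The siNeg level lay nearer to siCENPF for 5 of the 12.

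In the chromosomal passenger complex, BIRC5 (survivin, 0.28), INCENP (0.24) and CDCA8 (borealin, 0.20) were higher. BIRC5, INCENP and CDCA8 kept their calls in 9, 5 and 2 of the 9 fits that left out libraries. The kinase subunit AURKB had a log2 fold change of 0.18 (limma adjusted p = 0.0835). Of the 7 members measured in the list of that complex and the shugoshins, 3 were called (42.9%), beside 7.62% of all genes tested. All 7 were above 0, beside 49.7% of all genes tested. Against siNeg, the median of the 7 stood at 102.2% in siFOXM1 and at 89.02% in siCENPF. The siNeg level lay nearer to siCENPF for 0 of the 7. In the outer kinetochore 4 of 13 genes were higher and 3 lower (53.85% called, beside 7.62% of all genes tested). The higher ones included CASC5 (0.30), the KNL1 scaffold, and NDC80 (0.27), the microtubule coupler. Lower ones included MIS12 (−0.39), which joins the inner to the outer kinetochore, and SKA2 (−0.28). Inner kinetochore genes gave 2 higher of 16, CENPI (0.28) and CENPM (0.32), and 0 lower. CENPI and CENPM kept their calls in 3 and 1 of the 9 fits that left out libraries, and 0 of the 16 were called without the replicate block. The share called was 12.5%, beside 7.62% of all genes tested. Against siNeg, the median outer kinetochore gene stood at 92.26% in siFOXM1 and at 90.19% in siCENPF. The median inner kinetochore gene stood at 102.3% and 94.71%.

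Among condensin and cohesin genes, 5 of 23 were higher and 2 lower (30.4% called, beside 7.62% of all genes tested). CDCA5, or sororin, which protects cohesion, had 1683, 1366 and 1632 normalized counts in siFOXM1, against 1238, 1096 and 1331 in siCENPF (log2 fold change 0.35, limma adjusted p = 5.09e-04). Kinesins gave 5 higher and 2 lower of 15 (46.7% called), with KIF22, the chromokinesin Kid, at 0.30 and KIF2C, a microtubule depolymerase, at −0.18. KIF2C kept its call in 2 of the 9 fits that left out libraries. CENPE, the corona kinesin, was higher at 0.23. Spindle and cytokinesis genes gave 10 higher and 4 lower of 24 (58.3% called), and their median log2 fold change was 0.15. Against siNeg, the median condensin and cohesin gene stood at 99.61% in siFOXM1 and at 93.05% in siCENPF. The median kinesin stood at 99.4% and 90.96%, and the median spindle and cytokinesis gene at 102.4% and 91.85%.

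Among 32 FOXM1 targets of G2 and M phase, 9 were lower and 9 higher in siFOXM1, and the median log2 fold change was 0.09. The share called was 56.25%, beside 7.62% of all genes tested. The list was chosen with earlier results of these data known, so the counts do not show what an independent list would. Against siNeg, its median member stood at 97.4% in siFOXM1 and at 92.6% in siCENPF. CENPF partners gave 4 calls of 17 (23.5%), beside 7.62% of all genes tested. NDE1, the dynein regulator that CENPF brings to the nuclear envelope, had 379, 408 and 416 normalized counts in siFOXM1, against 664, 684 and 717 in siCENPF (log2 fold change −0.78, limma adjusted p = 2.04e-07). NDE1 shares 765 exonic bases with MYH11 on the opposite strand, which was also lower, so its value is uncertain. TRAK2, a mitochondrial motor adaptor (0.36), BICD2, the dynein adaptor at nuclear pores (0.30), and BUB1 were higher.

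**Figure D3:**
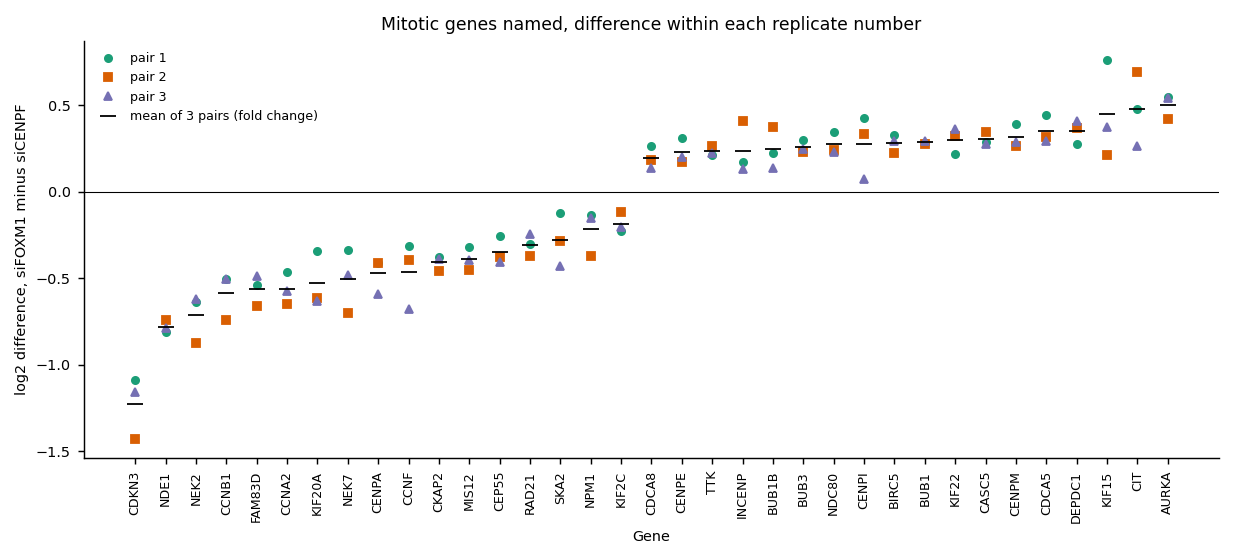
Log2 difference of siFOXM1 minus siCENPF within replicate numbers 1, 2 and 3 (symbols) and their mean (line) for the called genes of the mitotic lists that are named in the text by rule, ordered by fold change. The symbols of each gene lie on one side of 0, from CDKN3 near −1.23 on the left to AURKA near 0.50 on the right.

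The CHR element was looked for in the promoters of the mitotic genes. RefSeq promoters on GRCh38.p14 were searched for TTTGAA or TTCGAA on both strands in the 250 bases before the gene start, using the start nearest to the annotated 5′ end. The element was found in 8 of 20 lower mitotic genes with a promoter in the table, in 20 of 31 higher ones (64.5%) and in 19 of 94 that were not called (20.2%). It was found in 9.66% of the promoters of all genes tested and in 14.5% of the 27303 promoters in the table. Below are 30-base windows around a match, shown to set genes of opposite direction side by side, with the match in capitals (TTCAAA is TTTGAA read on the other strand).
Lower with siFOXM1 were the first 4.
CDKN3: tcccgcgcgtctTTCAAAggtcttctagga
CENPA: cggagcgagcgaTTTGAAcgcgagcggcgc
CCNF: gggccgggtgcgTTTGAAaactggggtggg
CEP55: tactctccgcccTTCAAAggcggcagccaa
Higher with siFOXM1 were these 4.
BUB1B: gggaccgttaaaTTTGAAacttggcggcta
CDCA5: cagggcgggtaaTTCGAAcgttttttgcag
DEPDC1: ccctctatgctaTTCAAAtcggcggcgggg
KIF15: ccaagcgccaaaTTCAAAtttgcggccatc

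The windows lie at chr14:54396825-54396854 (CDKN3), chr2:26786026-26786055 (CENPA), chr16:2429350-2429379 (CCNF), chr10:93496484-93496513 (CEP55), chr15:40161034-40161063 (BUB1B) and chr3:44761747-44761776 (KIF15), all on the plus strand. Those of CDCA5 (chr11:65084049-65084078) and DEPDC1 (chr1:68497092-68497121) are on the minus strand. Counted from the RefSeq gene start, the match begins at −18 in CENPA, −23 in BUB1B, −26 in CDCA5, −27 in DEPDC1, −35 in KIF15, −85 in CCNF, −116 in CEP55 and −170 in CDKN3. Genes of both directions thus held the element, but the placed matches differed in distance. All lower mitotic genes with a match had it at −85 to −170, except CENPA. Among the higher ones, SMC4, CDC20, CKAP5, DLGAP5, NCAPD2, TOP2A and CIT had it at −65 to −208 and the rest at −10 to −35. Some genes held a further match that is not placed here, and the difference in distance was not tested. CCAAT was found in 15 of the 20 lower genes (75.0%) and 16 of the 31 higher ones (51.6%). It was found in 50 of the 94 mitotic genes not called (53.2%) and in 35.3% of genes tested. The forkhead core TGTTTA was found in 1 of 20 lower (5.00%) and 2 of 31 higher genes (6.45%). It was found in 3 of the 94 not called (3.19%) and in 6.00% of genes tested. These matches describe letters in a window and say nothing of binding.

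Genes of the YAP and TAZ pathway, which respond to cell shape and tension, gave 8 lower and 2 higher of 22 with siFOXM1 and 12 not called, beside 4.26% lower and 3.36% higher over all genes tested. Their median log2 fold change was −0.10. Besides WWTR1 the lower genes included ANKRD1, CTGF and PTPN14. Against siNeg, ANKRD1 stood at 61.5% in siFOXM1 and at 106.9% in siCENPF, and PTPN14 at 71.1% and 97.2%. CTGF stood at 93.0% in siFOXM1 and at 129.1% in siCENPF, so its mean departed more from siNeg in siCENPF. ANKRD1, a nuclear target of YAP, had 13000, 6075 and 9020 normalized counts in siFOXM1, against 22960, 11010 and 14860 in siCENPF (log2 fold change −0.80, SE 0.0829, with limma adjusted p = 3.89e-05). CTGF, a secreted matricellular target, had 15260, 8896 and 12990 in siFOXM1, against 20650, 13210 and 17710 in siCENPF (log2 fold change −0.48, SE 0.0546, with limma adjusted p = 1.09e-06). For ANKRD1 and CTGF the groups overlapped across numbers, since libraries 1 were high and libraries 2 low in both, while each pair had siFOXM1 lower. Without the replicate block their limma adjusted p was 0.800 and 0.842, and over the alternatives it ran up to 0.983 for each.

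PTPN14, a phosphatase that holds YAP in the cytoplasm, had 3968, 4018 and 4033 normalized counts in siFOXM1, against 5622, 4681 and 6127 in siCENPF (log2 fold change −0.44, limma adjusted p = 2.66e-05). It also lies near CENPF on chromosome 1. In the fits that left out libraries, 6 (without number 3) to 10 of the 22 genes of the pathway were called, and 1 without the replicate block.

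Of 28 genes of cholesterol and fatty acid synthesis, 11 were higher in siFOXM1, 0 lower and 17 not called, beside 3.36% higher over all genes tested. The median log2 fold change was 0.19, 26 of the 28 were above 0, and the medians in pairs 1, 2 and 3 were 0.18, 0.23 and 0.21. IDI1, the isomerase of isopentenyl diphosphate, had 1519, 3040 and 2398 normalized counts in siFOXM1, against 1254, 2484 and 1587 in siCENPF (log2 fold change 0.39, SE 0.0649, with limma adjusted p = 2.80e-04). FDPS, farnesyl diphosphate synthase (0.29), DHCR7, the last enzyme of cholesterol synthesis (0.32), and MSMO1, a sterol demethylating oxidase (0.34), were higher as well. Levels differed more between numbers than between siRNAs, with 0 of the 28 genes free of overlap. The median member stood at 119% of siNeg in siFOXM1 and at 105% in siCENPF. Without the replicate block 0 of the 28 were called, and in the fits that left out libraries 3 (without siFOXM1 library 2) to 12.

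Genes of the integrated stress and unfolded protein responses, which cells switch on for amino acid shortage or misfolded protein in the endoplasmic reticulum, gave 8 lower in siFOXM1, 0 higher and 16 not called of 24, beside 4.26% lower over all genes tested. SLC3A2, the heavy chain of the large neutral amino acid transporter, had 3531, 1212 and 2771 normalized counts in siFOXM1, against 5363, 1909 and 3539 in siCENPF (log2 fold change −0.54, SE 0.0641, with limma adjusted p = 2.68e-06). SLC7A5, the light chain of that transporter, had 5645, 1944 and 4487 in siFOXM1, against 9521, 3337 and 6157 in siCENPF (log2 fold change −0.66, SE 0.0906, with limma adjusted p = 5.61e-04). TRIB3, a pseudokinase induced by ATF4 (−0.53), and HSPA5, the chaperone BiP (−0.24), were lower as well.

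The median member of that list stood at 96.5% of siNeg in siFOXM1 and at 118% in siCENPF, so by the medians siCENPF was farther from the control. Single members varied, and the siNeg level lay nearer to siCENPF for 9 of the 24. The median log2 difference was −0.40 in pair 1, −0.22 in pair 2 and −0.10 in pair 3. Without the replicate block 0 of the 24 were called, and in the fits that left out libraries 3 (without number 1) to 10.

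**Figure D4:**
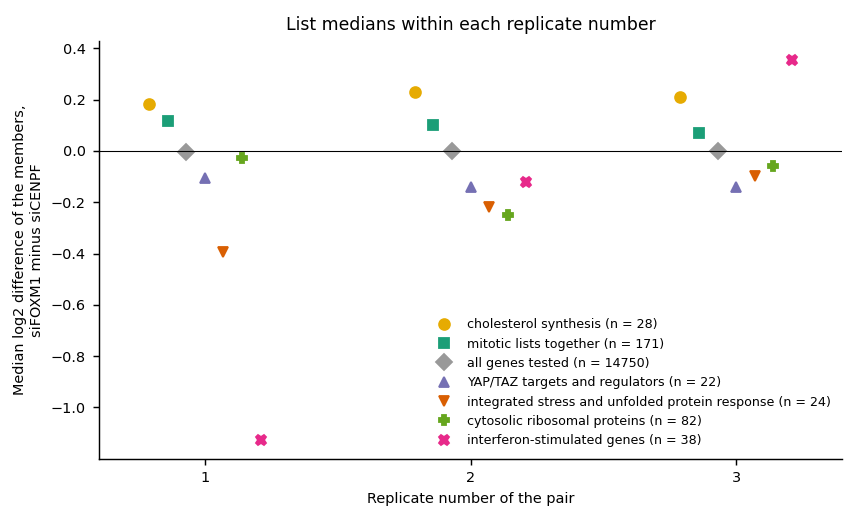
Median log2 difference of siFOXM1 minus siCENPF over the members of 6 gene lists and over all genes tested (vertical axis) within replicate numbers 1, 2 and 3 (horizontal axis). Cholesterol synthesis stays between 0.18 and 0.23 and the mitotic lists between 0.07 and 0.12, while interferon-stimulated genes run between −1.13 and 0.36.

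Interferon-stimulated genes had the most uneven differences of the lists drawn by pair. The median of 38 measured genes was −1.13 in pair 1, −0.12 in pair 2 and 0.36 in pair 3, and −0.31 over the pairs. Libraries numbered 1 stood high in every group: the median member had 1192, 315 and 368 normalized counts in siFOXM1 libraries 1 to 3, against 2645, 360 and 284 in siCENPF, with 2269, 346 and 332 in siNeg. Of the 38 genes 1 was called (2.63%), beside 7.62% of all genes tested. It was IFITM2, a membrane protein that blocks virus entry (log2 fold change −0.47, limma adjusted p = 0.00290), which shares exonic bases with the similar gene IFITM1. The difference of the list therefore rested on 1 of the 3 pairs, and its median was 0.12 without the libraries numbered 1 and 0.02 without siCENPF library 1 alone.

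**Figure D5:**
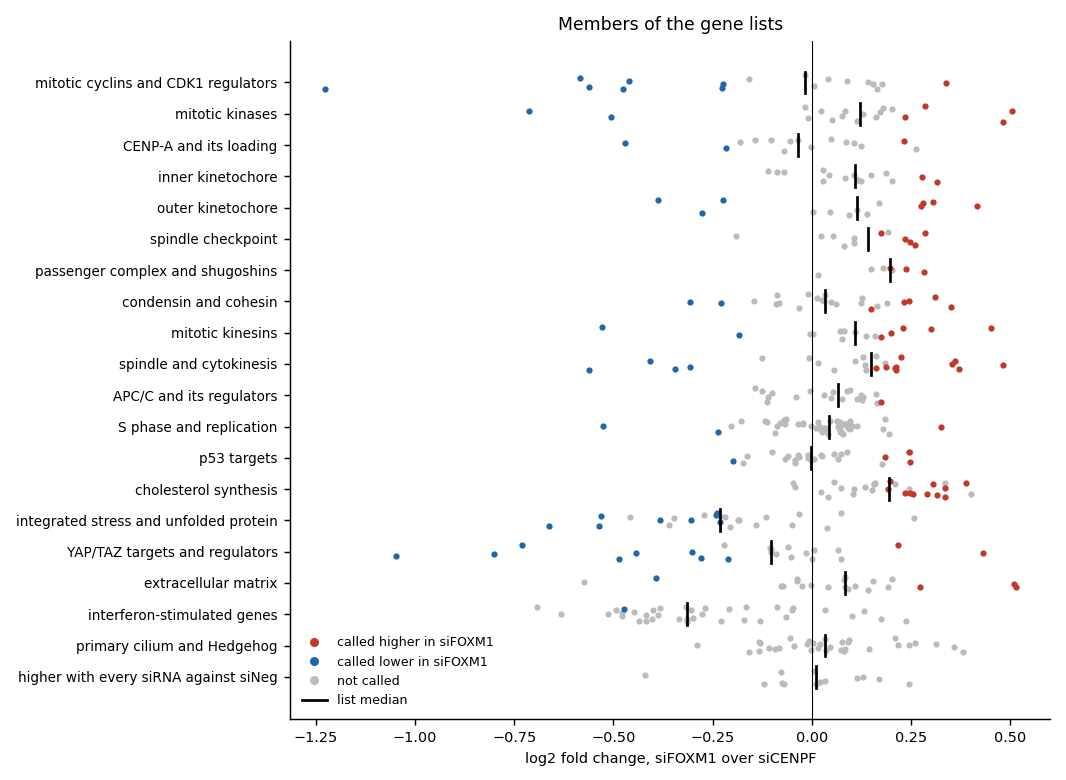
Log2 fold change of siFOXM1 over siCENPF (horizontal axis) for each measured member of 20 gene lists (rows), with red for genes called higher, blue for genes called lower, grey for the rest and a black bar for the list median. The list of cyclins and CDK1 regulators reaches −1.23 (CDKN3) with its median at −0.02, 26 of the 28 cholesterol synthesis genes lie right of 0, and the members of the cilium list are not called.

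Other lists are given by their counts, beside 3.36% called higher and 4.26% called lower over all genes tested. In S phase and replication, 1 of 50 genes was higher and 2 lower, with a median of 0.04: GINS1, of the replicative helicase (0.33), MCM6, of the same helicase (−0.24), and RAD51AP1, a recombination factor (−0.53). Targets of p53 gave 3 higher and 1 lower of 25, with a median of −0.00. The APC/C and its regulators gave 1 of 20. Primary cilium and Hedgehog genes gave 0 of 33, the other forkhead factors 0 of 20, cluster histones 0 of 13 and mitochondrially encoded mRNAs 0 of 13. A missed threshold does not show that these genes are equal in the knockdowns.

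Genes reported in the series as higher with every knockdown siRNA against siNeg were placed too. Of 13 measured, 0 were called, beside 7.62% of all genes tested, and the median log2 fold change was 0.01. The median member stood at 174% of siNeg in siFOXM1 and at 171% in siCENPF. Because the list was chosen for a rise with every siRNA in these data, similar levels in the 2 knockdowns partly follow from that choice. Around FOXM1 on chromosome 12, 2 of 11 neighbours were called, ITFG2 and WNK1 (0.26). WNK1 kept its call in 2 of the 9 fits that left out libraries. Around CENPF on chromosome 1, PTPN14 and BATF3, a dendritic cell transcription factor (−0.59), were the 2 called of 10. The shares called were 18.2% around FOXM1 and 20.0% around CENPF, beside 7.62% of all genes tested.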

How the data were processed

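PolyA RNA of 12 libraries was sequenced, and the 3 siFOXM1 libraries were compared with the 3 siCENPF libraries. The members, gene lists and naming rule were chosen with earlier results of these data known. The tools named in the submitters' processing notes are bcl2fastq, Trimmomatic, TopHat and edgeR, and the genome build is hg38. Their versions, the treatment of strand and the method of normalization are not given in the sources used here.

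Normalized counts were deposited by the authors for 14862 genes, as a signal on a count scale whose library sums run from 1.85e+07 to 1.98e+07. They also deposited FPKM for 60279 genes and, in their edgeR tables, CPM per library. The authors' tables gave symbols for 14202 genes, and the reference annotation for 618 more. The deposited CPM values of the 9 knockdown libraries were whole multiples of 1 read within 0.01 reads for 100% of values, which gave the reads counted in genes. Counting error alone is therefore small for abundant genes, and the spread between libraries sets the precision.

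The main test was limma 3.58.1 in R 4.3.3, with trend and robust moderation, on log2(normalized count + 1), which understates the change of low genes. All 12 libraries entered the fit, which had 4 group means and the replicate number as a block (6 residual degrees of freedom). It covered 14750 genes that reached 10 normalized counts in 3 or more of the 6 libraries. The contrast was siFOXM1 minus siCENPF, two-sided, with Benjamini-Hochberg adjustment over those genes and a threshold of 0.05. The labels give the replicate numbers. Same-numbered libraries of any 2 groups correlated in their deviations at 0.271 to 0.623 over 18 pairs, so the numbers were taken to pair the samples. Libraries of other numbers correlated at no more than 0.053. That low value partly follows from taking deviations from each group's own mean.

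Named genes were the targets and their called neighbours, the 14 genes per direction with the largest fold change among called genes that averaged 100 normalized counts or more, did not overlap, had one sign in all 3 pairs and carried an official-style symbol, and up to 4 members per list with the smallest adjusted p. Some genes that met the rule are not reported here. Alternatives were another block, sample set, pseudocount, filter, scaling or unit (FPKM), libraries left out (9 fits), and edgeR 4.0.16 or DESeq2 1.42.0 on the recovered read counts of the 9 knockdown libraries. The fits that left out libraries dropped each replicate number in every group, or each siFOXM1 or siCENPF library singly. The siNeg libraries were left out of those read-count fits because their reads could not be verified in the same way. The limma and count fits were tested on simulated data first.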

Additional observations from a re-analysis of the deposited data

How the results depend on the processing

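The 1124 calls, 496 higher and 628 lower with siFOXM1, rested on pairing the libraries by number. With no replicate block they were 69 (20 higher, 49 lower), and with only the 6 libraries and no block 12 (2 and 10). The FPKM table gave 487 (230 and 257), and limma without trend and robust moderation 353 (145 and 208). Leaving out libraries gave 481 to 940 calls, 193 to 423 higher and 285 to 517 lower. The other alternatives run stayed within 1.5 times of 1124: the 6 libraries with the block, pseudocounts, filters, scalings, edgeR (1313 with TMM scaling, of which 1107 were shared) and DESeq2 (935, of which 885 were shared). The share of genes whose siNeg level lay nearer to siCENPF was 51.2% for higher and 69.9% for lower genes. It was 25% and 95.9% with no replicate block, 0% and 100% with 6 libraries and no block, 45.2% and 79.4% with FPKM, 44.1% and 82.2% without moderation, and 37.5% to 58.5% and 63.1% to 82.1% when libraries were left out. For the double knockdown, the share nearer to siCENPF was 38.3% for higher and 30.7% for lower genes. It was 65.0% and 24.5% with no replicate block, 100% and 0% with 6 libraries and no block, 46.2% for higher genes without moderation, and 30.6% to 47.1% and 20.3% to 38.9% when libraries were left out. These shares are over fewer genes where fewer were called; the cause of the shifts was not tested. Of 102 called genes named, 102 kept their sign under every alternative run, 59 kept the call in every fit that left out libraries, 25 with no replicate block and 101 in edgeR. Low counts limit what could be called: 15.8% of the 2950 genes with the highest counts passed, against 1.02% of the 2950 with the lowest.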

Other observations

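A few groups not described above also held calls, beside 3.36% called higher and 4.26% called lower over all genes tested. Among 21 genes of hypoxia and the HIF hydroxylases, 3 were higher and 3 lower. VEGFA, the angiogenic growth factor, had 3044, 5203 and 3308 normalized counts in siFOXM1, against 2294, 3568 and 2161 in siCENPF (log2 fold change 0.52, SE 0.0800, with limma adjusted p = 4.66e-04). EPAS1, which encodes HIF-2 alpha, was lower in every pair (log2 fold change −0.54, limma adjusted p = 0.0127), and kept its call in 5 of the 9 fits that left out libraries. Of 8 measured SOX factors 3 were higher. SOX11, a factor of neural progenitors, had 371, 434 and 436 normalized counts in siFOXM1, against 255, 264 and 300 in siCENPF (log2 fold change 0.60, SE 0.102, with limma adjusted p = 3.58e-04). It stood below siNeg, which had 527, 552 and 617, in both knockdowns. HDAC4 (0.47) and HDAC6 (0.40) were higher and HDAC8 (−0.39) lower among 13 histone deacetylases. They kept their calls in 4, 7 and 2 of the 9 fits that left out libraries, and 0 of the 13 were called without the replicate block. HDAC4 stood below siNeg in both knockdowns, at 83.9% in siFOXM1 and 60.5% in siCENPF.

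Matrix genes gave 3 higher and 1 lower of 21. LOX, the enzyme that crosslinks collagen, was lower (log2 fold change −0.39, limma adjusted p = 4.36e-06), while COL6A3 (0.51) and COL1A1 (0.51) were higher, the last with only 3 of the 9 fits that left out libraries keeping the call. Cytosolic ribosomal protein genes lay below 0 in 79 of 82 cases, with a median log2 fold change of −0.11. Even so, 2 were called, RPL22L1 and RPL10, which kept their calls in 3 and 1 of the 9 fits that left out libraries. Median differences of the 82 genes in pairs 1, 2 and 3 were −0.03, −0.25 and −0.06. LOX and VEGFA share 138 and 188 exonic bases with an opposite-strand gene called in the same direction, which makes their values uncertain. By gene type, 8.86% of protein-coding, 3.18% of long intergenic non-coding and 2.44% of antisense genes tested were called.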
